A study of Mus musculus with 4 samples.

Results

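The genes described here are 9 of the 21728 protein-coding genes outside chromosome Y. They are Sox9, Krt7, Krt19, Epcam, Spp1, Notch2, Jag1, Hes1 and Tnfrsf12a, and they were chosen by name as genes of bile duct cells and of liver progenitor cells. Chromatin accessibility was measured by single-cell ATAC-Seq (scATAC-Seq), in which the Tn5 transposase cuts DNA that is not packed away, and the barcode of a droplet tells which nucleus a fragment came from. Hepatocytes were taken from adult male C57BL/6J mice on normal chow, labelled as 10 to 12 weeks old, before surgery (PHx 0 h, undamaged liver) or 48, 72 or 96 h after PHx, a partial hepatectomy, in which surgeons cut away several liver lobes and the rest grows back. All hepatocytes were released by collagenase perfusion, which leaves some endothelial and Kupffer cells in the preparation. Each time point had 1 library, the 0 h and 48 h libraries came from 1 hepatocyte preparation each, and the labels and methods do not say whether mice were pooled at 72 and 96 h.

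Hepatocytes and cholangiocytes, the cells that line bile ducts, arise from a common fetal progenitor. Notch signalling directs part of that choice: a ligand such as Jagged1 on one cell binds a receptor such as Notch2 on its neighbour, the receptor is cleaved, and its inner part joins RBPJ on DNA to switch on targets such as Hes1 and Sox9. Tnfrsf12a encodes Fn14, the receptor of the cytokine TWEAK, which drives progenitor growth in injured liver. Open chromatin at a gene is a condition of its use and not a measure of its RNA.

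The value of a gene is the sum of counts in peaks that touch its body or the 2 kb upstream of it, over barcodes with at least 1000 counts (called nuclei), scaled to 1000000 counts in each library (CPM). Intervals are 95% exact Poisson intervals on fragments and, like all intervals here, cover counting error only. With 1 library per time point there was no test between times, and a ratio compares 2 libraries, not 2 conditions. The libraries held 3977, 3892, 4256 and 3224 nuclei at 0, 48, 72 and 96 h, with a median of 26005, 11629, 4841 and 3681.5 counts per nucleus. Peaks were called in each library on its own and covered 153.6, 179.0, 141.2 and 60.9 Mb, so covered lengths are given with the main levels below. A gene without a peak in a library has no value there. All 10 hepatocyte markers looked at, Alb, Apoa1 and Ttr among them, had a peak in every library. Between 27 and 60 barcodes of nuclei were shared by any pair of libraries, and without all shared barcodes the 21 member ratios to 0 h stayed within their intervals.

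Jag1 (chromosome 2, 137081456 to 137116644, minus strand; coordinates are mm10 throughout) encodes the ligand Jagged1. Jag1 gave, in order of time, 81.1 CPM (interval 78.9 to 83.2), 84.4 (81.2 to 87.7), 122.1 (116.1 to 128.5) and 150.6 (142.0 to 159.7). The 0 h and 48 h libraries overlapped, and the 72 h and 96 h libraries lay above both. Its window was covered by 4773, 6319, 6363 and 4155 bp of peaks, so the 96 h value came from the least length. Nearly all counts lay in 1 region over the gene start, chr2:137113704-137118228, which gave 79.9, 79.6, 113.2 and 149.2 CPM. This region had 1 peak of near-equal length in every library, 4323, 4525, 4169 and 3927 bp. When counts were scaled to regions of near-equal length only, the ratios to 0 h were 1.09 at 48 h, 1.32 at 72 h and 1.06 at 96 h, against 0.997, 1.42 and 1.87 as ratios of CPM. The higher Jag1 value at 96 h therefore depended on the scaling. A short element in an intron, chr2:137109590-137110265, carried 161, 93, 82 and 22 counts. The 250 bases before the RefSeq start of Jag1 lay inside a peak in all 4 libraries. Those outside every annotated exon, chr2:137116645-137116770 on the minus strand, are shown because they lay under the one peak that carried nearly all Jag1 counts. RefSeq sequences (GRCm38.p6) are printed in lower case with matches to the letters searched in capitals, and this stretch held none.

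Jag1: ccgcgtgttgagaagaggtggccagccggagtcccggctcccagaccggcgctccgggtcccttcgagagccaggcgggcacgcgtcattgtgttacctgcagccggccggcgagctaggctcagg

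Notch2 (chromosome 3, 98013527 to 98150361, plus strand) encodes a receptor of Jagged1 and had the most counts of the 9 genes. Notch2 gave, in order of time, 251.1 CPM (247.3 to 254.9), 292.9 (286.9 to 298.9), 241.0 (232.4 to 249.8) and 199.3 (189.3 to 209.7). The 48 h library was highest and the 96 h library lowest. This long gene held 37, 45, 41 and 21 peaks, and their summed length of 50030, 68720, 42200 and 14198 bp took the same order as the CPM. Per kb of peak the values were 5.02, 4.26, 5.71 and 14.0 CPM, in another order. Peaks merged into 52 regions over the gene, of which 13 had a peak in every library. The region with the most counts, chr3:98042000-98047944 inside the gene, gave 38.2 CPM at 0 h and 37.5 at 48 h, a ratio of 1.07 among regions of near-equal length.

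Hes1 (chromosome 16, 30064384 to 30067796, plus strand) encodes a transcriptional repressor that Notch switches on. A single peak touched its window in each library, 9184, 9086, 8863 and 6078 bp long. Hes1 gave, in order of time, 132.7 CPM (129.9 to 135.4), 96.0 (92.6 to 99.5), 117.0 (111.1 to 123.2) and 118.0 (110.4 to 126.1). Within the window the 0 h library was the highest, and the 48 h library lay below the other three. At 96 h a second peak of the same region, chr16:30062188-30071371, lay outside the window, and over the whole region the 96 h library was the highest, with 148.0 CPM (139.4 to 157.0) over 7493 bp, a ratio to 0 h of 1.12. The order of 0 h and 96 h thus turned with the peaks counted. The ratio at 48 h, where 1 peak spanned the region as at 0 h, was 0.724 (0.694 to 0.755), and 0.79 among regions of near-equal length. Counting each nucleus once per peak (binarised counts) turned this ratio above 1, with a log2 value of 0.12. At 72 and 96 h it gave log2 ratios of 0.63 and 0.72, past 1.5-fold, where those of CPM were -0.18 and -0.17. Nuclei at 0 h were the deepest, and the part of depth in this was not tested.

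Sox9 (chromosome 11, 112782224 to 112787760, plus strand) encodes a transcription factor of bile duct cells and of progenitors. Sox9 gave, in order of time, 32.7 CPM (31.4 to 34.1), 24.0 (22.3 to 25.7), 36.2 (33.0 to 39.8) and 42.6 (38.0 to 47.5), over 5362, 4623, 4863 and 2611 bp. The 48 h library lay below the other three, the 96 h library lay above that of 0 h, and the 72 h library overlapped both of these. Most of the counts lay in 1 region over the start, chr11:112779085-112784475, with 27.4, 24.0, 35.8 and 42.6 CPM. A second region, chr11:112787707-112789202 at the end of the gene, had 5.30, 5.29, 7.36 and 5.89 CPM, but its peak touched the window of the gene at 0 h only. In the start region the 48 h library was 0.95 and the 72 h library 1.21 times the 0 h level among regions of near-equal length. The start region alone gave CPM ratios to 0 h of 0.874, 1.31 and 1.55, and the 72 h library there, 35.8 (32.6 to 39.3), lay above that of 0 h, 27.4 (26.2 to 28.7). Sox9 was thus past 1.5-fold at 96 h when the second region was left out, and the overlap of 72 h with 0 h held only with it counted at 0 h.

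**Figure D1:**
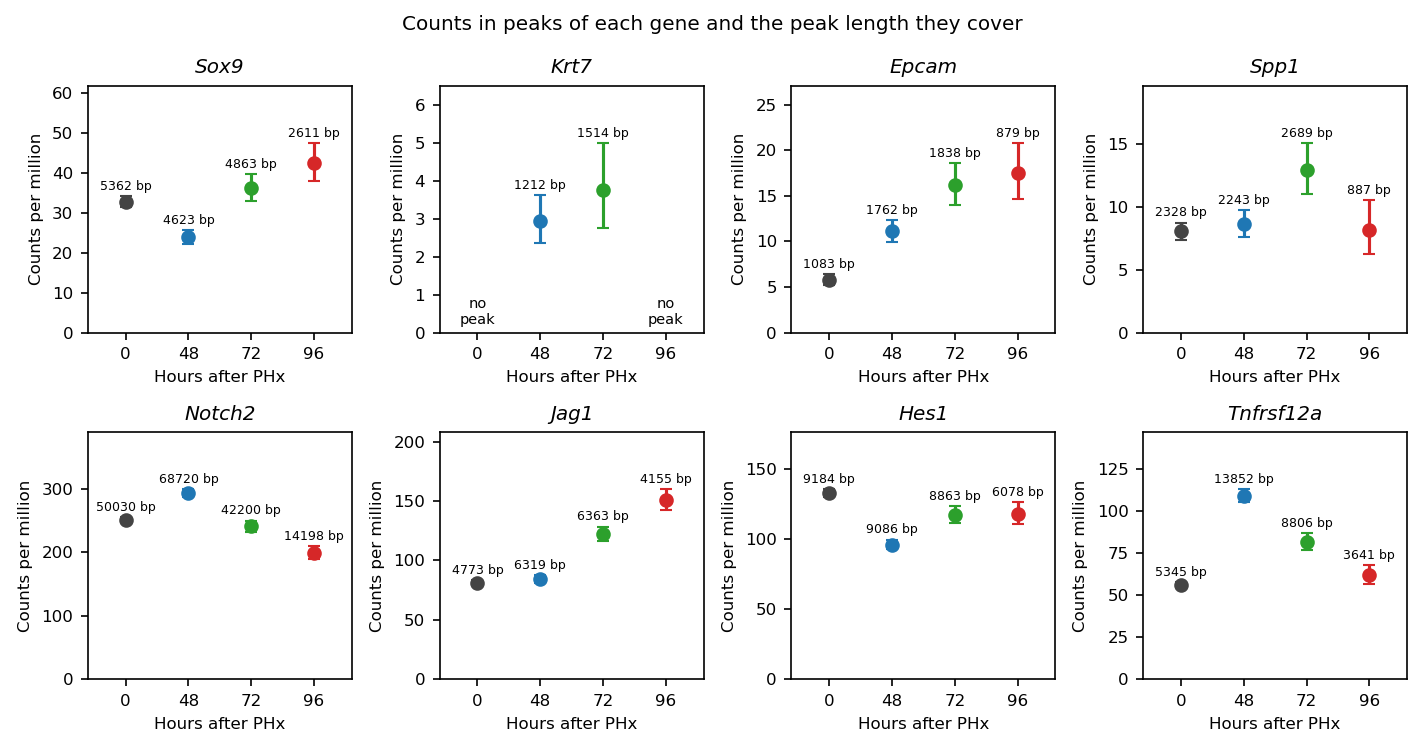
CPM (vertical axis, from 0) in the peaks of 8 genes by hours after PHx (horizontal axis), 1 library per time point, with 95% exact Poisson intervals for counting error and the covered peak length in bp above each point. Jag1 stood highest at 96 h with 150.6 CPM, Tnfrsf12a at 48 h with 109.2 CPM over its longest peak, and Krt7 had a peak at 48 and 72 h only; Krt19, with a single peak of 8 counts, is not drawn.

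Epcam (chromosome 17, 87635979 to 87651129, plus strand) encodes an adhesion protein on the surface of bile duct cells and progenitors. Epcam gave, in order of time, 5.80 CPM (5.24 to 6.40), 11.1 (9.97 to 12.4), 16.2 (14.0 to 18.6) and 17.5 (14.7 to 20.8). The 0 h library was lowest, the 48 h library next, and the 72 h and 96 h libraries overlapped. The ratios to 0 h were 1.92, 2.79 and 3.03, the last being the highest ratio of any of these genes at any time. Covered length was 1083, 1762, 1838 and 879 bp, so at 48 and 72 h more sequence was counted and at 96 h less. The peak did not reach the gene start at 0 h, where it began at 87636168, nor at 96 h, where it began at 87636355, and at 48 h it began 1 base inside the gene, at 87635980. The 250 bases before the start lay wholly inside a peak at 72 h and outside one in the other 3 libraries. At 96 h the peak was near-equal in length to that of 0 h, and the ratio among such regions was 1.71. The bases before the start, chr17:87635729-87635978 on the plus strand, are shown because only the 72 h peak reached them. The capitals mark a GC box, GGGCGG on either strand, which 32.7% of 32851 RefSeq promoters of 250 bases hold.

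Epcam: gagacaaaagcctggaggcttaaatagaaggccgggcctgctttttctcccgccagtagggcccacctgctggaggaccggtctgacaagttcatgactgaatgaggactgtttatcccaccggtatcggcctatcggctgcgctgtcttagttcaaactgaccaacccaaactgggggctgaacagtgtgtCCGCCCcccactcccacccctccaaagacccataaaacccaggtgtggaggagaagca

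Spp1 (chromosome 5, 104435118 to 104441050, plus strand) encodes osteopontin, a secreted phosphoprotein made by bile duct cells. Spp1 gave, in order of time, 8.04 CPM (7.38 to 8.74), 8.63 (7.63 to 9.73), 12.9 (11.0 to 15.1) and 8.17 (6.25 to 10.5), over 2328, 2243, 2689 and 887 bp. The 72 h library stood above the other three, which overlapped. Of the gene's 3 regions, that over the first start gave 1.44, 1.82 and 3.40 CPM at 0, 48 and 72 h and had no peak at 96 h. An upstream region, chr5:104432708-104433360, gave 2.72, 2.82 and 5.42 CPM at 0, 48 and 72 h, with ratios to 0 h of 1.13 and 1.85 among regions of near-equal length. The region inside the gene, chr5:104436148-104437216, had ratios of 1.12 and 0.98 there. At 96 h it gave 7.03 CPM (5.26 to 9.21) against 3.87 (3.42 to 4.37) at 0 h, a ratio of 1.82 over 724 and 1069 bp, lengths that were not near-equal. With gene bodies alone counted, Spp1 was therefore past 1.5-fold at 96 h, with a log2 ratio of 0.65 against 0.02. At 96 h the upstream peak was 163 bp long and held 17 counts. As with Epcam, the 250 bases before the first RefSeq start lay in a peak at 72 h only. The 300 bases at the centre of the upstream peak of 0 h, chr5:104432899-104433198 and 1920 to 2219 bp before the start, are shown as the part of Spp1 that differed at matched length. The capitals mark the letters TGGGAA, the core that RBPJ binds, on either strand; 26.2% of 7346 windows of 300 bases at peak centres on chromosome 5 hold them, so a match by itself is common.

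Spp1 upstream element: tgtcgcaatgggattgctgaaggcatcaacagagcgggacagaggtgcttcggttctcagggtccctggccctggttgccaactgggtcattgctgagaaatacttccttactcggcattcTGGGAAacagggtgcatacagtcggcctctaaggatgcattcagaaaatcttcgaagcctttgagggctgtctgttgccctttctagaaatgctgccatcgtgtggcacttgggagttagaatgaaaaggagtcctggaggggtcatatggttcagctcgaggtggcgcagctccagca

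Krt7 (chromosome 15, 101411043 to 101430313, plus strand) and Krt19 (chromosome 11, 100140810 to 100148665, minus strand) encode the keratins by which bile duct cells are told from hepatocytes. No peak was called in the Krt7 window at 0 h or at 96 h. At 48 h its peaks gave 2.95 CPM (2.38 to 3.62) over 1212 bp, and at 72 h 3.76 CPM (2.76 to 5.01) over 1514 bp. The 48 h library had a peak of 93 counts over a gene start, chr15:101412101-101412636, which held the whole 250 bases before the RefSeq start. The 72 h peaks lay elsewhere in the window, and none of these regions was shared between the 2 libraries. Krt19 had a single peak of 136 bp in an intron, chr11:100145194-100145329, with 8 counts at 72 h, and no peak in the other 3 libraries. Both genes stayed below the mean of 5 CPM that a ratio required here.

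Tnfrsf12a (chromosome 17, 23675445 to 23677468, minus strand) gave, in order of time, 56.1 CPM (54.3 to 57.9), 109.2 (105.5 to 112.9), 81.8 (76.9 to 87.0) and 62.0 (56.5 to 67.9). The 48 h library was highest by a ratio of 1.95, the 72 h library followed, and those of 96 h and 0 h overlapped. The covered length took the same order at 48 and 72 h, with 5345, 13852, 8806 and 3641 bp, and per kb of peak the 48 h value was lower than that of 0 h, 7.88 against 10.5 CPM. The wide peak also held the starts of the neighbours Hcfc1r1 and Thoc6 at 0, 48 and 72 h, and that of Bicdl2 at 48 h, so its counts belong to several genes. Further peaks of the merged region chr17:23664306-23678157 lay outside the window at 0, 72 and 96 h, and over the whole region the values were 59.7, 109.2, 97.2 and 66.0 CPM, which took the 72 h ratio from 1.46 to 1.63, past 1.5-fold. Only at 96 h was the Tnfrsf12a start in a peak of its own, chr17:23676468-23677788, with 20.6 CPM. The bases before the start outside annotated exons, chr17:23677469-23677699 on the minus strand, are shown because they lay in a peak in all 4 libraries. The capitals mark GC boxes, of which the full 250 bases held 5.

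Tnfrsf12a: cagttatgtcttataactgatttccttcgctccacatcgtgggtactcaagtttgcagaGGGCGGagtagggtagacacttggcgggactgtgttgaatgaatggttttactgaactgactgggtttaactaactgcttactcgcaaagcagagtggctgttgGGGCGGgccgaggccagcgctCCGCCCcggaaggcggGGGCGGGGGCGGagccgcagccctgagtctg

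The letters searched on both strands of each promoter also included TATAAA, the RBPJ core TGGGAA, the TEAD motif GGAATG, and the motifs of AP-1 and NF-kB, which did not overlap one another in the stretches printed. Promoter sequences matched 6 of the 9 genes, Jag1, Notch2, Spp1, Krt7, Epcam and Tnfrsf12a. Notch2 and Tnfrsf12a each held 5 GC boxes, Krt7 held 4, and none of the 6 genes held the RBPJ, AP-1 or NF-kB letters in these windows, which 21.6%, 6.75% and 1.41% of all promoters hold.

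Of the 9 genes, 7 reached a mean of 5 CPM over the libraries compared. At 48 h, Epcam and Tnfrsf12a were at least 1.5-fold higher than at 0 h, 2 of 7, when 13.3% of 15263 genes were. At 72 h, Epcam, Spp1 and Jag1 were, 3 of 7, against 20.2% of 15460 genes. Jag1 passed there by little, with a ratio of 1.51, and fell short, at a log2 ratio of 0.58, with all deposited barcodes and with barcodes of at least 3000 counts. Spp1 fell short at 72 h with binarised counts, at a log2 ratio of 0.08. At 96 h, Epcam and Jag1 were, 2 of 7, against 18.6% of 14966 genes. None was at least 1.5-fold lower at any time, where 7.56%, 16.5% and 17.1% of all genes were. The median log2 ratio of the 7 genes was 0.10, 0.55 and 0.15, and that of all genes -0.04, -0.02 and 0.08. Across all genes the log2 ratio of CPM moved with the log2 ratio of covered length, with a Pearson r of 0.880 at 48 h, 0.912 at 72 h and 0.838 at 96 h; genes share libraries and peaks are not independent, so this is a description. In regions of near-equal length none of the 5 genes with such regions was past 1.5-fold in either direction at 48 h or at 72 h. There, 4.11% and 10.4% of all genes were at least 1.5-fold higher and 1.6% and 7.08% lower. At 96 h only Epcam and Jag1 had such regions, and Epcam was past 1.5-fold, as were 27.8% of 2990 genes, while 6.45% were lower. Per kb of covered peak, 0, 1 and 6 of the 7 genes were at least 1.5-fold higher at 48, 72 and 96 h, against 1.0%, 10.9% and 93.3% of all genes, and none was lower, against 8.45%, 1.93% and 0.0668%. Counting only peaks within 1 kb of a gene start, 2, 1 and 3 of 7 were higher, against 11.0%, 15.8% and 21.7%, and none lower, against 10.1%, 19.6% and 16.0%. Counting only peaks centred in the window, 1, 2 and 3 of 6 were higher, against 12.7%, 21.2% and 20.4%, and none lower, against 7.15%, 14.1% and 12.7%.

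**Figure D2:**
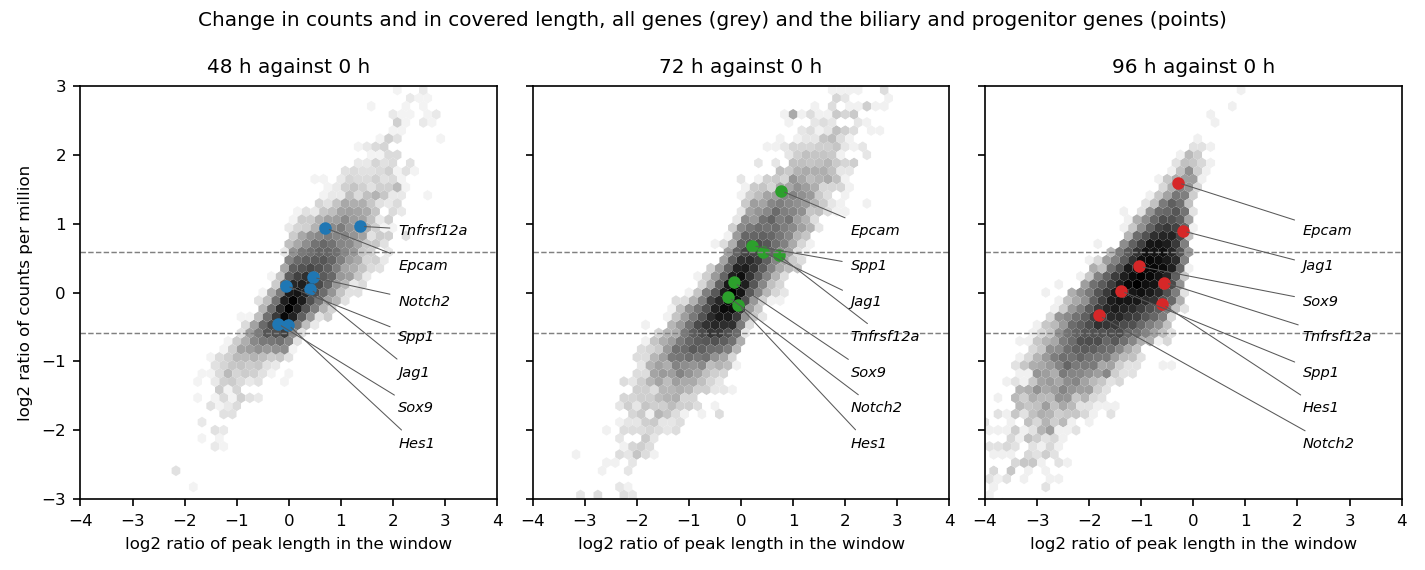
Log2 ratio to 0 h of CPM (vertical) against log2 ratio of covered peak length (horizontal) for all genes with a mean of at least 5 CPM (grey hexagons, darker for more genes on a log scale) and for 7 biliary and progenitor genes (points); dashed lines mark 1.5-fold. The 7 genes lie within the cloud of all genes, Tnfrsf12a at 48 h with a log2 length ratio of 1.37 and a log2 CPM ratio of 0.96.

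To compare single nuclei, each was thinned to 1000 counts and the share with a count in a gene's peaks was computed, with exact binomial intervals. Notch2 was the most often open, with 21.2%, 23.6%, 18.7% and 15.2% of nuclei in order of time. Hes1 was open in 11.9%, 8.59%, 9.53% and 9.27%, and Jag1 in 7.41%, 7.80%, 10.1% and 11.6%. Tnfrsf12a was open in 5.28%, 9.23%, 6.79% and 5.10%. Sox9 was open in 3.01% (2.50 to 3.59), 2.11% (1.68 to 2.61), 3.02% (2.52 to 3.57) and 3.58% (2.97 to 4.28). Sox9, Jag1 and Notch2 had the same order of libraries as in CPM, while for Hes1 the 72 h and 96 h libraries, and for Tnfrsf12a the 0 h and 96 h libraries, changed places. Epcam was open in 0.614% (0.395 to 0.909), 1.12%, 1.39% and 1.63% (1.22 to 2.13), and Spp1 in 0.878%, 0.842%, 1.06% and 0.785%. Krt7 was open in 0.307% at 48 h and 0.332% at 72 h, and Krt19 in 0.0231% at 72 h. Without thinning the shares were higher and moved with depth: Sox9 was open in 34.7%, 15.3%, 9.38% and 9.03% of nuclei.

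As a background, 12 genes used in other organs, among them Ins2 of the pancreas and Gfap of glia, were counted in the same way. Those with a peak (9, 11, 11 and 7 of the 12) had a median share of 0.667%, 1.20%, 1.52% and 1.58% of nuclei, and ranged up to 3.57%, 8.50%, 10.6% and 7.94%. Epcam lay below this median at 0, 48 and 72 h and just above it at 96 h, Spp1 lay above it at 0 h only, and Krt7 and Krt19 lay below it. At these depths the shares of these 4 genes are therefore not read as use of the gene. The shares compare genes of unlike covered length. Per kb of covered peak, Epcam gave 5.35, 6.31, 8.80 and 19.96 CPM and Spp1 3.45, 3.85, 4.80 and 9.21, in order of time. On the same scale Gfap gave 5.93, 6.25, 8.41 and 13.3, Ins2 4.94, 4.77, 7.01 and 18.2, Nkx2-1 1.87, 2.85, 4.07 and 6.82, and Olig2 2.97, 3.30, 4.39 and 3.04. Per kb, Epcam thus lay above these 4 background genes at 48, 72 and 96 h, by little at 48 and 72 h, and below Gfap at 0 h, while Spp1 lay among them. The same background genes were also higher after PHx: 4 of 7 at 48 h, 6 of 7 at 72 h and 4 of 5 at 96 h were at least 1.5-fold higher than at 0 h, beside 13.3%, 20.2% and 18.6% of all genes. Nkx2-1 and Olig2 lay below 5 CPM at 0 h, so at 48 and 72 h they entered these counts only through the later library. At 96 h neither reached a mean of 5 CPM, and neither was counted. In regions of near-equal length 1 of 4, 2 of 3 and 1 of 2 were higher, beside 4.11%, 10.4% and 27.8% of all genes. Nkx2-1, a lung and thyroid factor, gave 1.64, 13.0, 19.3 and 6.76 CPM over 877, 4573, 4742 and 992 bp and Olig2, of oligodendrocytes, 4.53, 17.4, 23.1 and 0.268 over 1526, 5281, 5263 and 88 bp, while Ins2 gave 19.0, 19.6, 27.5 and 21.0 and Gfap 10.8, 12.2, 17.7 and 17.7. Sox9, Tnfrsf12a, Jag1, Hes1 and Notch2 lay above the background median in all 4 libraries, but only Notch2 lay above the highest background gene in all 4. Sox9 lay below that gene in every library, Tnfrsf12a at 72 and 96 h, Jag1 at 48 and 72 h and Hes1 at 72 h. Hepatocyte markers had a median of 36.3%, 33.0%, 21.8% and 34.9%.

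**Figure D3:**
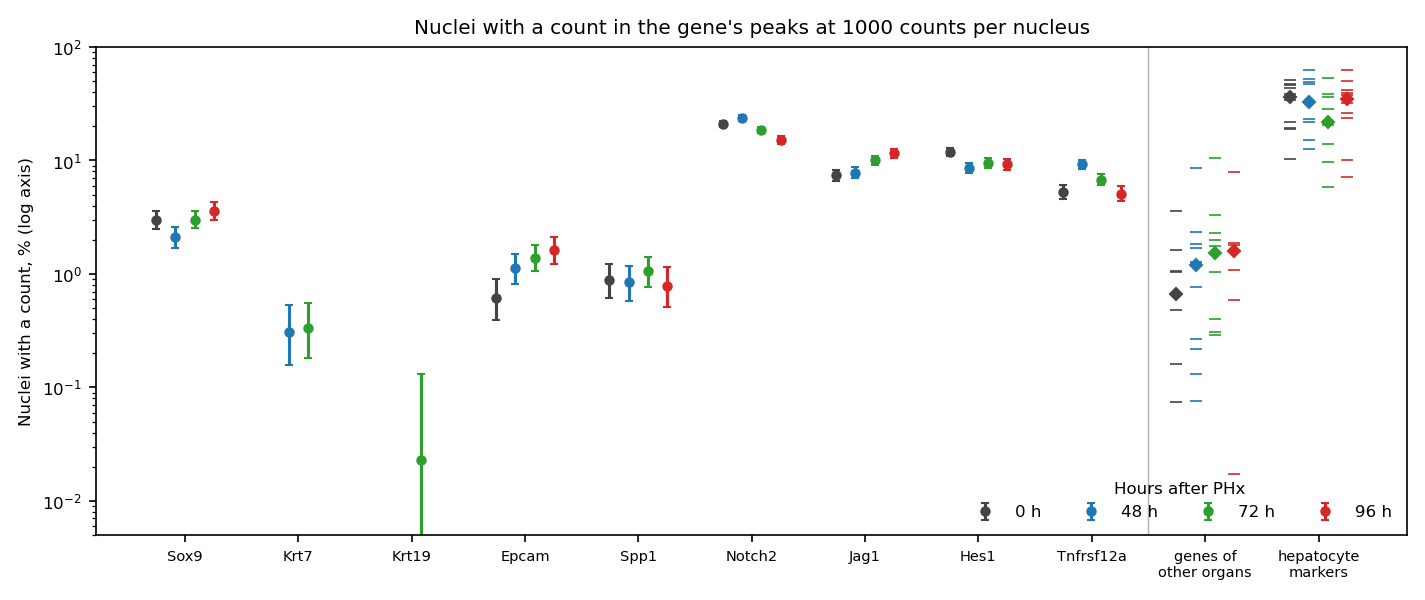
Share of nuclei with a count in the peaks of each gene (log axis, percent) after thinning to 1000 counts per nucleus, by library, with 95% exact binomial intervals; at the right, dashes are single genes of other organs and single hepatocyte markers and diamonds their medians (values below 0.005% and genes without a peak are not drawn). Epcam sits near the median of genes of other organs, Spp1 lies below it after 0 h, and Notch2, Hes1 and Jag1 lie above it.

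Nuclei were clustered without the regions of these genes, and clusters were named from marker lists. Hepatocyte-like clusters held 2512, 3635, 3931 and 3128 nuclei at 0, 48, 72 and 96 h; the 5 clusters differed in library, cluster 0 being mostly of 96 h, cluster 1 of 72 h, cluster 2 of 48 h, cluster 3 of 0 h and cluster 4 of 48 and 72 h. Library and time point cannot be told apart. A cluster of 1168 shallow nuclei at 0 h, with hepatocyte marker levels but a low depth, was left unnamed. An endothelial-like cluster held 207, 139, 198 and 56 nuclei and a myeloid-like cluster 90, 76, 88 and 26, the latter with the Kupffer gene Clec4f but also the endothelial gene Cdh5 among its 10 leading genes. No cluster had more than 1 cholangiocyte marker at least 2-fold higher than elsewhere, so no group of bile duct nuclei was seen at this depth. In all 4 libraries 8 to 10 of those 10 markers had a peak, and Cftr had none at 0 and 96 h. Their summed levels were 361.8, 383.6, 388.9 and 400.9 CPM over 55148, 66464, 54787 and 25123 bp. Summed endothelial markers were 411.8, 418.8, 512.8 and 232.1 CPM over 72635, 84181, 85580 and 21094 bp. Those of Kupffer and myeloid cells were 171.3, 239.5, 210.8 and 110.3 CPM over 24647, 45098, 37699 and 7292 bp. Stellate and mesenchymal markers, of which 5 to 7 of 8 had a peak, summed to 107.9, 194.8, 247.5 and 180.4 CPM over 22088, 43087, 40626 and 13394 bp. Of those measured, 3 of 5, 4 of 5 and 5 of 5 were at least 1.5-fold higher than at 0 h at 48, 72 and 96 h, beside 13.3%, 20.2% and 18.6% of all genes, and their part in the values of the 9 genes was not tested. In regions of near-equal length these counts were 0 of 4, 0 of 4 and 1 of 3, beside 4.11%, 10.4% and 27.8% of all genes. In such sums of CPM, fewer nuclei of a type, less signal per nucleus and less covered length cannot be told apart. Restricting the counts to hepatocyte-like nuclei kept all 21 ratios to 0 h within their intervals.

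At 0 h Sox9 was higher in hepatocyte-like nuclei, 33.0 CPM (31.5 to 34.4), than in endothelial-like nuclei, 8.83 (2.13 to 24.0), or myeloid-like nuclei, 4.80 (0.58 to 17.4). It had no count in the endothelial-like nuclei of 48 h and 96 h and 2 counts in those of 72 h, with upper limits of 23.9, 97.1 and 30.6 CPM, so at 48 and 96 h a difference was not detectable at this depth. Jag1 was higher in endothelial-like nuclei, 143.8 (108.9 to 186.2) against 80.2 (78.0 to 82.5) in hepatocyte-like nuclei at 0 h and 220.7 (152.8 to 308.4) against 83.9 (80.7 to 87.2) at 48 h, while the intervals overlapped at 72 and 96 h. Hes1 was higher there as well, 312.7 (260.1 to 372.9) against 132.0 (129.2 to 134.9) at 0 h and 188.2 (126.1 to 270.4) against 95.4 (92.0 to 98.9) at 48 h, and also at 72 h, but with overlapping intervals at 96 h. Notch2 was highest in myeloid-like nuclei at 0, 48 and 72 h, 390.3 (332.6 to 455.2) against 250.1 (246.2 to 254.1) at 0 h and 459.1 (374.3 to 557.3) against 291.9 (285.9 to 298.0) at 48 h. At 72 h it was 460.1 (336.9 to 613.7) against 239.5 (230.9 to 248.4), and at 96 h the 26 myeloid-like nuclei gave 49.9 (1.26 to 278.3) from 2 counts against 199.97 (189.9 to 210.4). Tnfrsf12a was higher in both other classes at 0 h, 97.1 (68.9 to 133.0) and 97.3 (69.7 to 132.2) against 55.7 (53.9 to 57.6), and at 48 h its level was 109.9 in hepatocyte-like nuclei against 58.4 (26.7 to 110.9) and 49.5 (24.7 to 88.6). Epcam at 0 h was 5.37 (4.80 to 5.97) in hepatocyte-like nuclei and its intervals in both other classes overlapped this, as did those of Spp1. In the unnamed shallow nuclei of 0 h Epcam was 9.97 (7.47 to 13.0), above the hepatocyte-like nuclei, and Sox9 was 34.0 (29.3 to 39.4), overlapping them. These classes share the peaks of their library, so covered length does not differ between them. Median depth did, 41146.5 counts against 2645 and 7511 at 0 h. With nuclei thinned as above, open shares kept these directions, but many intervals overlapped. At 0 h Jag1 was open in 8.98% (5.46 to 13.7) of endothelial-like and 7.42% (6.43 to 8.52) of hepatocyte-like nuclei. Jag1 and Hes1 at 48 h, Hes1 at 72 h, Notch2, Tnfrsf12a at 0 h and Epcam in shallow nuclei also overlapped. Hes1 at 0 h did not, 19.7% (14.5 to 25.8) against 12.1% (10.9 to 13.5). Against endothelial-like nuclei, Sox9 at 0 h and Tnfrsf12a at 48 h stayed apart too.

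**Figure D4:**
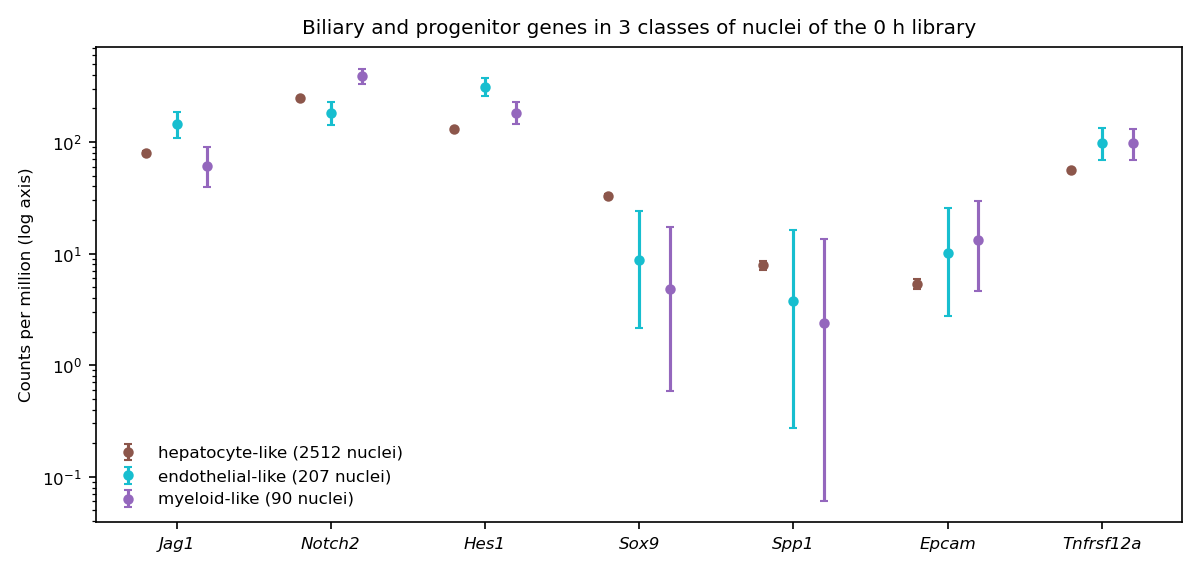
CPM (log axis) of 7 genes in 3 classes of nuclei of the 0 h library, with 95% exact Poisson intervals; the classes come from 1 library and are not replicates. Sox9 stands highest in hepatocyte-like nuclei with 33.0 CPM, Jag1 and Hes1 in endothelial-like nuclei with 143.8 and 312.7 CPM, and Notch2 in myeloid-like nuclei with 390.3 CPM.

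In liver, Sox9 and osteopontin are known from hepatocytes near the portal tracts, so hepatocyte-like nuclei were also set along the lobule; this split was added after the values had been seen. Each nucleus with at least 10 counts in 9 periportal genes (such as Cyp2f2, Hal and Ass1) and 9 pericentral genes (such as Cyp2e1, Glul and Oat) was placed by the share of periportal counts. The 25% with the highest share (periportal end) and the 25% with the lowest (pericentral end) were compared within each library. At 0 h the limits were 80.4% and 49.9%, with 286 and 110 nuclei within 2 percentage points of them, so the ends are ranges and not cell types. At 48, 72 and 96 h the limits were 75.0% and 42.0%, 77.8% and 40.0%, and 87.5% and 57.1%. As near to these limits lay 185 and 166, 94 and 131, and 132 and 83 nuclei. Too few counts left out 3, 426, 1281 and 1456 nuclei at 0, 48, 72 and 96 h. The later libraries were shallower, and the part of this in the ratios between the ends was not tested.

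Sox9 was higher at the periportal end, 45.4 CPM (41.8 to 49.3) against 17.5 (15.6 to 19.6) at 0 h, a ratio of 2.59. At 48 h it was 26.3 (22.2 to 30.9) against 17.1 (14.3 to 20.2), a ratio of 1.54, and at 96 h 50.7 (38.4 to 65.7) against 26.8 (19.3 to 36.3), a ratio of 1.89. At 72 h the ends overlapped, with 35.5 (27.7 to 44.8) against 30.05 (23.9 to 37.2). Spp1 was likewise higher at the periportal end, 11.1 (9.30 to 13.1) against 4.97 (3.97 to 6.15) at 0 h and 12.2 (9.51 to 15.5) against 6.67 (5.01 to 8.72) at 48 h. At 72 and 96 h its values were 13.6 against 9.18 and 10.2 against 6.39, with overlapping intervals. Thus Sox9 and Spp1, 2 of 7 genes, were at least 1.5-fold higher at the periportal end at 0 h, when 1.8% of 14812 genes outside the 18 sorting genes were; the same 2 were at 48 h, against 1.08%, and at 96 h, against 5.32%. At 72 h none was, against 2.77%. Splitting the nuclei at the middle of the share kept both genes past 1.5-fold at 0 h, with 1.75 for Sox9 and 1.60 for Spp1. It ended these calls at 48 h, with 1.29 and 1.37, and at 96 h, with 1.29 and 1.07, and it took Spp1 past 1.5-fold at 72 h, with 1.58. No share of all genes was computed for this split, so these ratios stand without that background. Between the ends none of the 7 was at least 1.5-fold lower, against 1.77%, 1.55%, 4.65% and 7.49% of genes at 0, 48, 72 and 96 h. Hes1 was 136.5 against 129.1 at 0 h with overlapping intervals, and 112.1 (103.5 to 121.3) against 77.9 (72.0 to 84.3) at 48 h. At 72 and 96 h it overlapped, 111.8 against 107.6 and 118.7 against 112.4, and splitting at the middle gave ratios of 0.95 and 0.92. Tnfrsf12a overlapped at 0 h and was 128.0 (118.8 to 137.8) against 94.0 (87.4 to 101.0) at 48 h, and at 72 and 96 h it overlapped, 90.4 against 68.9 and 72.0 against 62.3. Notch2 was 261.5 (252.6 to 270.5) against 222.8 (215.7 to 230.0) at 0 h, a ratio of 1.17, and at 96 h it was lower at the periportal end, 183.7 (159.5 to 210.5) against 218.7 (196.1 to 243.1), a ratio of 0.84 with overlapping intervals. Jag1 and Epcam overlapped in all 4 libraries. The periportal end was the shallower in every library, with a median of 34498 against 47466 counts at 0 h, 10729 against 16173 at 48 h, 5270 against 7486 at 72 h and 4753.5 against 6481 at 96 h. Summed cholangiocyte markers were 386.5 against 337.3 CPM at 0 h, 403.0 against 364.5 at 48 h, 421.3 against 383.8 at 72 h and 393.6 against 382.8 at 96 h, with 7 to 10 of the 10 markers having counts. Summed hepatocyte markers, 1 of which (Pck1) is also a sorting gene, were higher at the periportal end too, 5540 against 4103 CPM at 0 h, 7175 against 5125 at 48 h, 5241 against 3495 at 72 h and 8035 against 5247 at 96 h. The part of depth, of hepatocyte content or of bile duct nuclei in the Sox9 and Spp1 values was not tested.

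**Figure D5:**
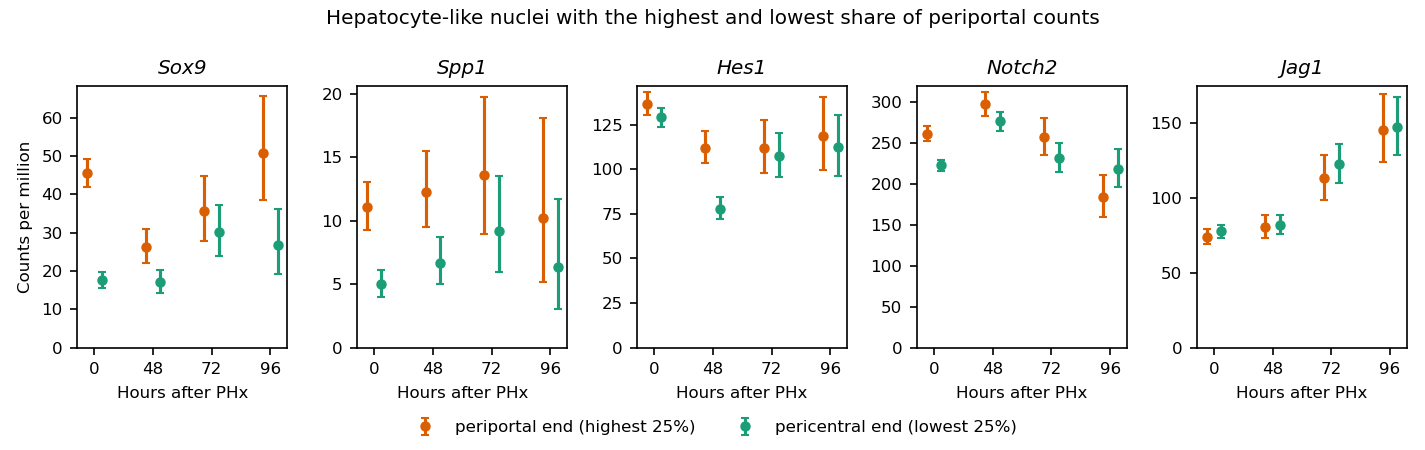
CPM (vertical axis, from 0) by hours after PHx in hepatocyte-like nuclei at the periportal and the pericentral end of each library, with 95% exact Poisson intervals. Sox9 separates the ends at 0, 48 and 96 h, with 45.4 against 17.5 CPM at 0 h, while Jag1 overlaps at every time.

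With nuclei thinned once at random to 1000 counts, 1 of Sox9, Krt7, Krt19, Epcam and Spp1 was open in 4.74%, 4.02%, 5.57% and 5.85% of hepatocyte-like nuclei at 0, 48, 72 and 96 h. At shares this low, whether these genes open in the same nuclei was not detectable. Hes1 was open in 11.3% (7.24 to 16.7) of the 194 nuclei with Jag1 open at 0 h and in 11.1% (9.88 to 12.5) of the others. These intervals overlap, as they did at 48, 72 and 96 h.

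The other genes of these pathways are given from named lists, whose counts stand beside the shares of all genes given above, 13.3% higher and 7.56% lower at 48 h, 20.2% and 16.5% at 72 h, and 18.6% and 17.1% at 96 h. Of 29 further Notch genes, 28 reached 5 CPM at 48 h, of which 6 were at least 1.5-fold higher and 4 lower than at 0 h; at 72 h it was 9 higher and 5 lower of 29, and at 96 h 4 higher and 8 lower of 26. Their median log2 ratios were 0.06, 0.16 and -0.01, close to those of all genes. The ligand genes Jag2 and Dll4 had the highest ratios at 48 h, with Jag2 at 1.78, 23.2, 48.0 and 1.34 CPM and Dll4 at 8.28, 32.1, 61.7 and 8.70 CPM at 0, 48, 72 and 96 h. Their covered lengths moved alike, from 805 to 9595 bp for Jag2 and from 2560 to 10090 bp for Dll4 between 0 and 48 h. Jag2, below 5 CPM at 0 h, reached the mean of 5 CPM at 48 h only through that library, and missed it at 96 h. Psen2, a subunit of the protease that cleaves Notch, was lowest with 186.5 and 109.7 CPM at 0 and 48 h over 20936 and 17271 bp, and the receptor gene Notch4 gave 25.9 and 16.5 CPM over 2828 and 2342 bp. Per kb of covered peak, Dll4 did not keep its direction, at 3.23 and 3.18 CPM.

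Of 18 other biliary genes, 14 were measured at 48 h, with 5 higher and 1 lower, then 4 higher and 2 lower of 13 at 72 h and 3 higher and 1 lower of 13 at 96 h, with median log2 ratios of 0.18, 0.32 and 0.15. Onecut1, a transcription factor of bile duct development, gave 103.7 CPM at 0 h and 216.4 at 48 h as its length went from 13371 to 35878 bp, and the water channel gene Aqp1 gave 7.07 and 15.3 over 1509 and 4547 bp. Per kb both turned lower at 48 h, from 7.76 to 6.03 CPM for Onecut1 and from 4.68 to 3.37 for Aqp1. The keratin gene Krt23 was 16.7 and 10.5 CPM over 4047 and 2592 bp. Of 12 progenitor genes, 2 of 9 were higher at 48 h, 4 of 10 at 72 h and 2 of 9 at 96 h, and 1 was lower, at 96 h, with medians of 0.17, 0.35 and 0.35. Lgr5, a receptor of Wnt enhancers, gave 29.7, 63.4, 82.5 and 85.4 CPM over 5946, 10762, 11757 and 4290 bp, and the surface protein gene Cd24a 2.94, 9.63, 12.3 and 7.57 over 1491, 3055, 2623 and 855 bp. Cd24a, below 5 CPM at 0 h, reached the mean of 5 CPM only through the later libraries. Gata6 gave 74.9 and 63.9 CPM and Axin2, a Wnt target, 45.6 and 40.4 at 0 and 48 h, with lengths of 8789 and 9421 bp for Gata6 and 8158 and 8406 bp for Axin2.

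Of 13 genes of the TWEAK and noncanonical NF-kB pathway, downstream of Tnfrsf12a, 3 were higher and 2 lower at 48 h, 3 and 1 at 72 h, and 2 and 2 of 12 at 96 h, with medians of -0.25, -0.05 and -0.03. Nfkb1 gave 79.0 and 138.8 CPM at 0 and 48 h and Traf1 3.38 and 9.19, while Rela gave 73.6 and 40.9 and the kinase gene Chuk 56.6 and 35.1. Covered length moved with each of these, from 12159 to 30300 bp for Nfkb1, 1349 to 3726 for Traf1, 11801 to 6270 for Rela and 9443 to 7306 for Chuk. Per kb the directions of all but Chuk turned, with 6.50 and 4.58 CPM for Nfkb1, 2.51 and 2.47 for Traf1 and 6.24 and 6.53 for Rela, while Chuk gave 5.99 and 4.80. Traf1, below 5 CPM at 0 h, reached the mean of 5 CPM at 48 h only through that library. Of 10 keratin and adhesion genes that hepatocytes and bile duct cells share, 9 were measured. None was higher at 48 h and 2 were lower, the tight junction genes Ocln, 214.9 and 108.5 CPM, and Cldn3, 82.2 and 49.0. The length of Ocln fell from 44669 to 19739 bp and that of Cldn3 from 10498 to 7360 bp, and per kb Ocln turned higher, from 4.81 to 5.49 CPM, while Cldn3 gave 7.83 and 6.66. At 72 h 1 was higher and 2 lower, and at 96 h 0 and 3. The medians were -0.09, -0.38 and -0.21 at 48, 72 and 96 h. Krt18 gave 150.4, 174.1, 101.0 and 108.2 CPM and Cd9 41.7, 50.8, 63.4 and 44.9 at 0, 48, 72 and 96 h, over 15306, 16587, 11875 and 8794 bp for Krt18 and 8143, 10039, 9573 and 3240 bp for Cd9. In regions of near-equal length the lists counted fewer genes past 1.5-fold at 48 h: 2 higher and 0 lower of 21 Notch genes, 1 and 0 of 10 biliary, 0 and 0 of 7 progenitor, 1 and 0 of 11 TWEAK and NF-kB, and 0 and 0 of 7 keratin and adhesion genes, beside 4.11% and 1.6% of all genes. At 72 h they counted 2 and 3 of 18 Notch, 3 and 0 of 10 biliary, 1 and 0 of 6 progenitor, 0 and 0 of 10 TWEAK and NF-kB, and 0 and 0 of 6 keratin and adhesion genes, beside 10.4% and 7.08%. At 96 h few genes had such regions, 2 and 0 of 6 Notch, 0 and 0 of 3 biliary, 1 and 1 of 4 progenitor and 0 and 1 of 4 TWEAK and NF-kB genes, beside 27.8% and 6.45%.

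Epcam had the widest range of the 7 genes with a peak in all 4 libraries, 3.03-fold. The 3 genes whose log2 profile over the 4 libraries was closest to its own were F930015N05Rik, the olfactory receptor gene Olfr94 and Msantd3, at Euclidean distances of 0.06, 0.09 and 0.10. In all, 495 of 15303 genes lay within a distance of 0.5.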

How the data were processed

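Per the file headers, Cell Ranger ATAC 1.1.0 made the deposited counts, whole numbers of cut sites per peak and barcode. The authors called peaks in each library separately, and the submitters' processing notes name mm10. The study analysed nuclei with ArchR, Cicero and chromVAR, after a filter on start site enrichment and fragments whose values were not used here. No peak passed the end of a GRCm38 chromosome, and 48.0% to 58.2% of starts of protein-coding genes lay in peaks, against 4.80% to 14.3% when shifted by 100 kb. Between 87.3% and 88.6% of counts were even, since both ends of a fragment count, so intervals used the counts divided by 2.

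Genes were GENCODE vM21 protein-coding models. A gene entered a ratio when the mean of the pair was at least 5 CPM and both libraries had counts, which left out 24, 36 and 76 genes at 48, 72 and 96 h. A gene below 5 CPM in 1 library of a pair thus entered only if the other library was higher. A ratio of at least 1.5 was the rule of size. The calls were run on Poisson counts simulated from the 0 h library, with 2-fold changes set in advance. That simulation held no difference in called peaks and no spread between libraries beyond counting error. It therefore checks only how the calls are computed. The genes and lists were chosen with earlier results of these data known. Named from each list were the genes with the 2 highest and 2 lowest ratios at 48 h. A gene that this rule names is not reported here. Regions of near-equal length had 1 peak in each library of a pair with a reciprocal overlap of at least 80%. Nuclei were clustered on 62815 binarised autosomal regions with a peak in every library, by TF-IDF, 30 components without the first, 30 neighbours and Leiden at resolution 0.5 (scipy 1.17.1, scikit-learn 1.9.0, leidenalg 0.10.2, Python 3.11.15). No doublet caller was run.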

Additional observations from a re-analysis of the deposited data

How the results depend on the processing

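No paired analysis was possible because each time point had 1 library, and for the same reason no library could be left out. The number of genes at least 1.5-fold higher than at 0 h depended on how peak length was treated. In regions of near-equal length it was 0, 0 and 1 at 48, 72 and 96 h. Per kb of covered peak it was 0, 1 and 6, and at 96 h 93.3% of all genes were past this limit on that scale. Counting only peaks centred in the window gave 1 at 48 h, where the centre of the wide Tnfrsf12a peak lay outside the window. Counting only peaks within 1 kb of a start gave 1 at 72 h. The log2 ratio of Tnfrsf12a at 48 h was -0.41 per kb of peak, against 0.96 for CPM. No count of genes at least 1.5-fold lower left 0 under any of these alternatives. Counts were the same or within 1.5 times with all deposited barcodes, barcodes of at least 3000 counts, hepatocyte-like nuclei, the 5% deepest barcodes left out, gene bodies alone, scaling to shared regions, binarised counts, and 2 alternatives added after seeing the data: ratios relative to the median gene and unshared barcodes. The genes counted differed: at 72 h Jag1 dropped out with all deposited barcodes and with at least 3000 counts, Tnfrsf12a entered with shared regions, and Hes1 and Tnfrsf12a replaced Spp1 with binarised counts. At 96 h gene bodies alone added Spp1 and binarised counts Hes1. Per kb of peak the median log2 ratio of all genes shifted to -0.22, 0.17 and 1.25. Binarised counts moved 17 of 21 ratios, with the sign of Hes1 among them. Open shares moved in 31 of 31 cases without thinning and in 30 of 31 at 2000 counts. Splitting nuclei at the middle of the periportal share in place of its ends gave Sox9 log2 ratios of 0.81, 0.36, 0.18 and 0.37, against 1.37, 0.62, 0.24 and 0.92. For Spp1 they were 0.68, 0.45, 0.66 and 0.09, against 1.15, 0.88, 0.57 and 0.68. The levels in hepatocyte-like nuclei stayed within their intervals at resolution 1.0.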
